A study of Mus musculus with 47 samples.

Results

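The 34 genes described here are the endoplasmic reticulum (ER) stress and chaperone genes of a mouse liver study: the folding machinery of the ER, the sensors and transcription factors of the unfolded protein response, their targets, and genes of ER-associated degradation and of entry into the ER. They were chosen by gene symbol from a table of 20320 genes, with earlier results of these data known. All 34 were among the 16650 genes with enough counts to be tested. RNA-seq counts the RNA fragments of each gene in bulk tissue, so that fewer cells of a type and less RNA per cell cannot be told apart. The mice were wild-type and otherwise untreated, of 3 inbred strains: the standard C57BL/6J, the wild-derived CAST/EiJ and the obesity-prone NZO/HlLtJ. Diets began at 6 weeks of age, with fiber in each: 1 had 10% fat, and the other, which the labels call high in fat and sugar, had 44%. Liver was collected at 15 weeks from both sexes. Strain, sex and diet make 12 groups of 4 libraries, but for a group of 3 (males of CAST/EiJ on 10% fat), and 47 libraries in all. The labels do not say whether libraries came from separate litters or cages, and the p-values measure only the spread between these libraries.

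Proteins that are secreted or sit in membranes enter the ER through the Sec61 channel, where chaperones and disulphide isomerases fold them and where misfolded chains are handed back to the cytosol for degradation. When unfolded protein builds up, the sensors Ern1 (IRE1 alpha), Eif2ak3 (PERK) and Atf6 are released from the chaperone Hspa5 (BiP): Ern1 splices the mRNA of Xbp1, Atf6 is cut to a transcription factor, and Eif2ak3 slows translation while favouring that of Atf4. Hepatocytes secrete most plasma proteins and lipoproteins, and this response is studied there in obesity and fatty liver.

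The transcription factors of the response bind short elements close to the start of their target genes. RefSeq start sites (build GRCm38.p6) were matched for 30 of the 34, all but Manf, Atf6, Hyou1 and Derl1, and the 250 bases upstream were searched on both strands. The ER stress response element, searched as CCAAT and CCACG with 9 bases of any kind between them, was found upstream of 9 of the 30 (30%): Hspa5, Hsp90b1, Dnajc3, Creld2, Pdia6, Calr, Canx, Syvn1 and Derl3. The same letters were found in 37 of 32851 mouse promoter windows (0.113%). ERSE-II, searched as ATTGG and CCACG with 1 base between them, was found in Herpud1 and in 10 of all windows (0.0304%). The core TGACGTG of the unfolded protein response element was found in Hspa5 and in 542 windows (1.65%). The composite element bound by Atf4 and C/EBP factors, searched as TGATGNAA, was found in Asns, Atf3, Chac1 and Herpud1 (13.3% of 30) and in 1134 windows (3.45%). Among windows of tested genes alone, the shares of the 4 elements, in this order, were 0.131%, 0.0414%, 2.2% and 2.24%. Members are counted as genes with a match in any of their windows, and the background as windows, those of the members included. The members were chosen as genes of this response, so their shares beside the background are a description and not a test. None of the matches within a gene overlapped. The set below shows Hspa5, the reference gene of the response, 5 further genes with an ERSE or ERSE-II that differ in how they varied, and the 3 genes whose only match was the Atf4 element. Each is written 5′ to 3′ on the strand of its gene, with the element in capitals and 15 bases on each side, and an element in the other orientation appears as its reverse complement.
Hspa5, chr2:34772010-34772058, plus strand, ERSE: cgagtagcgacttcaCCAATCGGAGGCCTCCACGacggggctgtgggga
Creld2, chr15:88819505-88819553, plus strand, ERSE: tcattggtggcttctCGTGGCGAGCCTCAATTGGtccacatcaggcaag
Syvn1, chr19:6046517-6046565, plus strand, ERSE: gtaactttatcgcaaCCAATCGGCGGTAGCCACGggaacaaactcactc
Pdia6, chr12:17266476-17266524, plus strand, ERSE: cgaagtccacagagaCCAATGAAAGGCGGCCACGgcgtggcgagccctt
Derl3, chr10:75893227-75893275, plus strand, ERSE: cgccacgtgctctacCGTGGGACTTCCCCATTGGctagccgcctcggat
Herpud1, chr8:94386362-94386402, plus strand, ERSE-II: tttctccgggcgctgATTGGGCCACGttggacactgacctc
Asns, chr6:7693210-7693247, minus strand, Atf4 element: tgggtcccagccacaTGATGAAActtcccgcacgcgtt
Atf3, chr1:191183421-191183458, minus strand, Atf4 element: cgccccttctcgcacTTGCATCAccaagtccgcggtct
Chac1, chr2:119351034-119351071, plus strand, Atf4 element: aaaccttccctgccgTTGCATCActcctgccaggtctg
The ERSE of Hspa5 lies 65 to 47 bases and the Atf4 element of Asns 23 to 16 bases before the start. A match of letters is a description and does not show that a factor binds there, and no match says only that these letters are not in the window. Sdf2l1 and Xbp1, 2 of the 3 genes called by diet below, held none of the 4 elements in their windows.

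Library totals ranged from 21609240 to 47780231 counts. Values are CPM, counts scaled to library size with TMM factors, and levels of different genes are compared only as CPM per kilobase of exon. The hepatocyte markers Alb and Ttr were high in every library, at 27700 to 109500 and 1908 to 5182 CPM. The pancreatic acinar gene Cpa1, with a median of 0.0254 CPM, was at 20 CPM or more in 5 libraries, called the 5 acinar libraries below: C57BL/6J females on 44% fat replicates 1 and 2, C57BL/6J males on 10% fat replicates 2 and 3, and CAST/EiJ females on 44% fat replicate 2. It was at 4.36 to 12.1 CPM in 4 further libraries, C57BL/6J female 44% fat replicate 4, CAST/EiJ male 10% fat replicate 2, CAST/EiJ female 44% fat replicate 3 and CAST/EiJ female 10% fat replicate 3, which were kept, and at most 0.568 CPM in the others. Acinar cells are rich in ER chaperones. The first of these libraries also stood apart in stress genes, with Atf3 at 35.6 CPM, Trib3 at 24.0 CPM and Ddit3 at 15.3 CPM. Some results of Atf3 and Trib3, not all, are given with and without that library.

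Per kilobase of exon, the chaperones dominated. Calr, a calcium-binding lectin chaperone of glycoproteins, had a median of 273 CPM per kb over the 47 libraries, Hspa5 258, Hsp90b1 (GRP94, the Hsp90 of the ER) 237 and Herpud1, a membrane scaffold of the degradation complex, 155. Genes at the other end were Ddit3 (CHOP) at 3.28, Ppp1r15a at 3.22, Trib3 at 2.97, Chac1 at 2.27, Derl3 at 0.675, Atf3 at 0.635 and Asns at 0.198 CPM per kb. Within a gene, the ratio of the highest to the lowest library was 1.47 for Canx and 3.29 for Hspa5, but 8.36 for Sdf2l1, 9.45 for Creld2, 61.1 for Derl3 and 87.0 for Asns. Atf3 had the widest ratio, 232, so that the 3 genes with the lowest levels also had the 3 widest ranges.

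After each group's mean was removed, most chaperone genes rose and fell with Hspa5 from library to library, and few genes of the Atf4 arm did. Of the other 33 genes, 19 passed a permutation test of both Pearson's r and Spearman's rho (100000 resamples within groups, two-sided, adjusted over the 16649 other tested genes), against 4.02% of all tested genes. The median r was 0.706 over the 33 genes and -0.0163 over all tested genes. These r values share the libraries, their depth and the scaling.

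Manf, a stress-induced protein that binds Hspa5, had r = 0.98 and rho = 0.971 (n = 47). Hyou1, the nucleotide exchange factor of Hspa5, had r = 0.972 and rho = 0.974 (n = 47). Creld2, a disulphide isomerase-like protein, followed with r = 0.951 and Syvn1 (Hrd1), the ubiquitin ligase of ER-associated degradation, with r = 0.933. For each of these 4 genes the permutation p was 1e-05, the smallest that the resamples can give, and the adjusted permutation p was 0.00138 for r and 0.00154 for rho. Without the 2 libraries farthest from the median of Hspa5 the same 4 genes had r of 0.975, 0.969, 0.946 and 0.928. Within the 3 runs of consecutive library identifiers, which are the closest thing to a batch in the labels, Manf had r of 0.961, 0.991 and 0.988. Of the 20 tested genes with the highest r, 11 were members, and the highest of the other genes was Tmed3 at 0.891, a cargo receptor of the early secretory pathway. Likeness of pattern is a description here.

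The sensors and the Atf4 arm varied differently. Xbp1 had r = 0.331 (adjusted permutation p = 0.258, n = 47), Atf6 0.318 (0.24 by permutation) and Ern1 0.255 (0.417 by permutation). Atf4 had r = 0.446 (adjusted permutation p = 0.0747, n = 47), while Ddit3 passed with r = 0.545 and rho = 0.557 (adjusted permutation p = 0.0439 and 0.0273). Trib3 (r = -0.28), Ppp1r15a (r = -0.12), Atf3 (r = -0.01) and Chac1 (r = -0.01) were the only members with a negative r, and none of the 4 passed. The 8 genes with an ERSE beside Hspa5 had r of 0.631 (Calr) to 0.951 (Creld2). Genes whose windows held no exact match to the ERSE letters reached similar values, such as Dnajb11 (0.915), Sdf2l1 (0.913), Pdia4 (0.908) and Pdia3 (0.872). A high r was therefore not confined to windows with the exact letters, and near matches were not searched. The 3 genes with only the Atf4 element (Asns, Atf3 and Chac1) had r of -0.01 to 0.274, and Herpud1, which holds an ERSE-II and an Atf4 element, had 0.365. Asns, Atf3 and Chac1 are among the members with the lowest levels, and the part of low counts in their r was not tested.

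**Figure D1:**
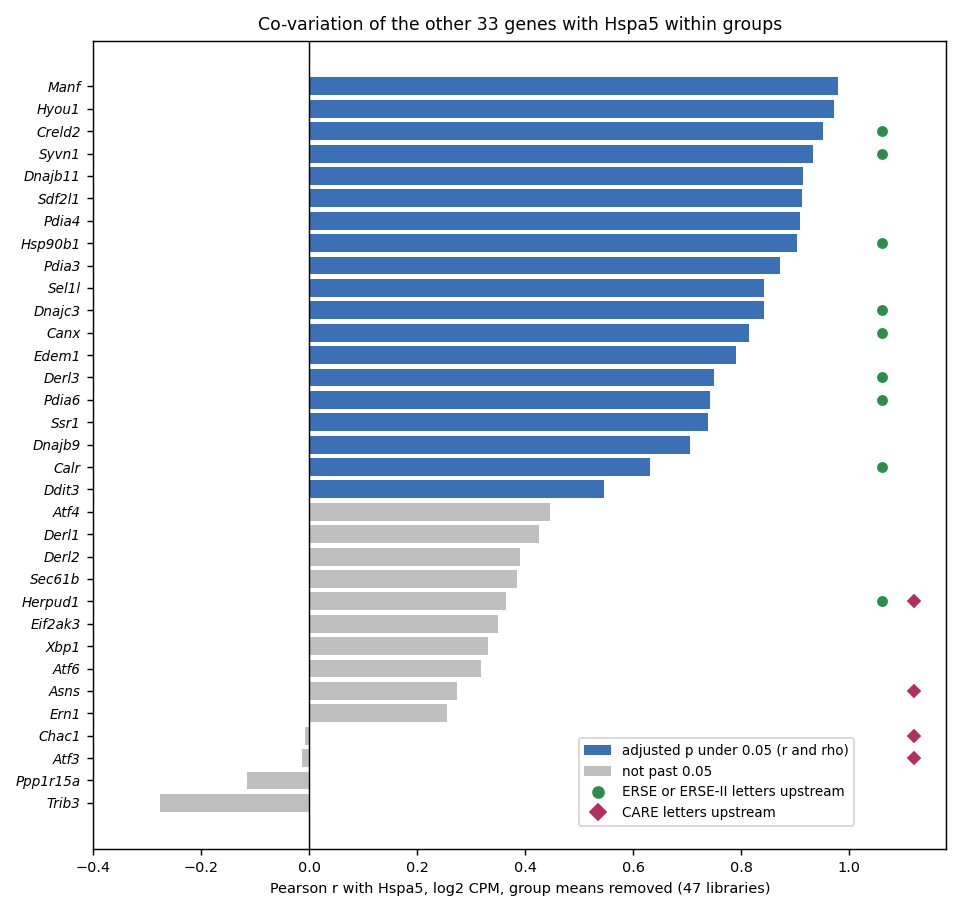
Bars give Pearson's r of each of the other 33 genes with Hspa5 over 47 libraries, on log2 CPM with the 12 group means removed; blue bars passed the permutation test for r and rho, and symbols at the right mark ERSE, ERSE-II or Atf4-element (CARE) letters within 250 bases upstream. Manf (0.98) stands at the top and Trib3 (-0.28) at the bottom; the genes with ERSE letters all lie at 0.631 or above and Herpud1, with ERSE-II, lies at 0.365.

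The first question of the design was whether the 44% fat diet changed these genes, and in which strain. In NZO/HlLtJ 3 members fell on 44% fat and 0 rose: Sdf2l1, Derl3 and Xbp1. Of all tested genes, 5.64% were called in this comparison, 2.14% lower and 3.5% higher, so 3 of 34 (8.82%) is a small excess over the background and lies in the lower direction. Most of the set leaned the same way: 29 of 34 log2 fold changes were negative, the median was -0.23 against 0 for all genes, and 16 members had an unadjusted p under 0.05. The members vary together (median r with Hspa5 of 0.706), so such counts, here and below, do not come from independent genes. The share of all genes at an unadjusted p under 0.05 was not taken. In C57BL/6J and CAST/EiJ 0 members were called by diet (0.991% and 0.895% of all genes), with 4 and 2 members at an unadjusted p under 0.05. The diets overlapped for every member in each strain (0.042%, 0.144% and 0.36% of all genes did not overlap in C57BL/6J, in CAST/EiJ and in NZO/HlLtJ).

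Sdf2l1 (ENSMUSG00000022769, chr16:17130138-17132383, minus strand) encodes a partner of the ER DnaJ proteins that helps to keep folding clients soluble. In NZO/HlLtJ on 10% fat the females had 23.7, 31.2, 23.1 and 43.7 CPM and the males 26.3, 46.3, 64.0 and 12.3 CPM. On 44% fat the females had 20.4, 10.3, 12.6 and 9.81 CPM and the males 9.31, 15.1, 8.51 and 14.8 CPM. Only 1 library on 10% fat, male replicate 4, lay within the range of the 44% fat group, and the groups overlapped through it. The log2 fold change was -1.42 (SE 0.32, n = 8 against 8), with an adjusted p of 0.00482 from edgeR's quasi-likelihood test.

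Derl3 (ENSMUSG00000009092, chr10:75893398-75895941, plus strand) encodes a derlin of the degradation channel whose promoter holds the ERSE shown above. On 10% fat its NZO/HlLtJ levels were 0.767, 1.27, 1.34 and 4.22 CPM in females and 1.42, 1.32, 6.23 and 0.326 CPM in males. On 44% fat they were 0.556, 0.144, 0.886 and 0.407 CPM in females and 0.360, 0.529, 0.304 and 0.427 CPM in males. These are low levels, and the groups overlapped through male replicate 4 and female replicate 1 on 10% fat. The log2 fold change was -2.20 (SE 0.55, adjusted p = 0.012, edgeR).

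Xbp1 (ENSMUSG00000020484, chr11:5520659-5525893, plus strand), the transcription factor made by Ern1 splicing, showed a smaller step. Its levels ranged from 155 to 285 CPM (median 184) on 10% fat and from 105 to 184 CPM (median 139) on 44% fat, and the ranges overlapped. The log2 fold change was -0.50 (SE 0.14, adjusted p = 0.0291, edgeR). Counts are summed per gene, so spliced and unspliced Xbp1 were not told apart. Leaving out 1 library gave from 1 to 10 called members: 1 without female 10% fat replicate 4 or male 10% fat replicate 3 (Sdf2l1 in each case), 5 without female 10% fat replicate 3 and 10 without male 10% fat replicate 4. Sdf2l1 was called in 16 of 16 such refits, Derl3 in 14 and Xbp1 in 8. With DESeq2 5 members were called, and with the 5 acinar libraries of the other strains left out of the shared fit 6. Within the identifier run that holds both diets for both sexes of this strain, 8 libraries, the log2 fold changes were -1.20, -1.53 and -0.36 for Sdf2l1, Derl3 and Xbp1, with adjusted p of 0.27, 0.131 and 0.493 (edgeR).

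Hspa5 itself was not called by diet in NZO/HlLtJ. It ranged from 687 to 2115 CPM (median 1245) on 10% fat and from 815 to 1180 CPM (median 941) on 44% fat, a log2 fold change of -0.43 (SE 0.19, adjusted p = 0.181, edgeR). The 10% fat group was the more variable of the pair and contained the 44% group's whole range. Syvn1 (-0.75, adjusted p = 0.0737), Hyou1 (-0.58, adjusted p = 0.0852) and Creld2 (-0.84, adjusted p = 0.135) also missed the edgeR threshold. The 95% intervals, which are not adjusted for the number of genes, lay below 0 for all 4: -0.81 to -0.06 for Hspa5, -1.27 to -0.24 for Syvn1, -0.99 to -0.17 for Hyou1 and -1.51 to -0.17 for Creld2. By role, all 9 lumenal chaperones, all 5 isomerases and lectin chaperones and all 7 degradation genes had negative values, with medians of -0.49, -0.26 and -0.17. Of the 4 Atf4 targets 2 were negative and 2 positive, from -0.67 for Chac1 to 0.41 for Trib3 with a median of -0.25, and no difference between roles was tested. Atf4 (-0.21, adjusted p = 0.271) and Ddit3 (0.06, adjusted p = 0.944) were not called.

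In NZO/HlLtJ males alone, Xbp1 (-0.74, adjusted p = 0.0382) and Sdf2l1 (-1.64, adjusted p = 0.0397) fell by edgeR (2.68% of all genes called), and in females alone 0 members were called (0.486% of all genes), where Sdf2l1 had -1.20 and Derl3 -1.91. The difference between the sexes in this strain called 0 members (0.018% of all genes). Replicates 3 and 4 of females on 10% fat and males on 44% fat were in identifier run 2. Those of females on 44% fat and males on 10% fat were in run 3. Within a sex, and in the difference between the sexes, diet and identifier run therefore partly coincide and cannot be told apart. Other measures moved with the diet in NZO/HlLtJ males: summed hepatocyte markers were 104000 to 126600 CPM on 10% fat and 86790 to 98390 CPM on 44% fat, and 10 plasma and B cell markers summed to 12.02 to 19.2 and 7.06 to 10.2 CPM. The plasma cell gene Mzb1 was at most 0.427 CPM in any library. Acinar markers summed to at most 13.2 CPM in all NZO/HlLtJ libraries. The part of these measures in the diet result was not tested.

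**Figure D2:**
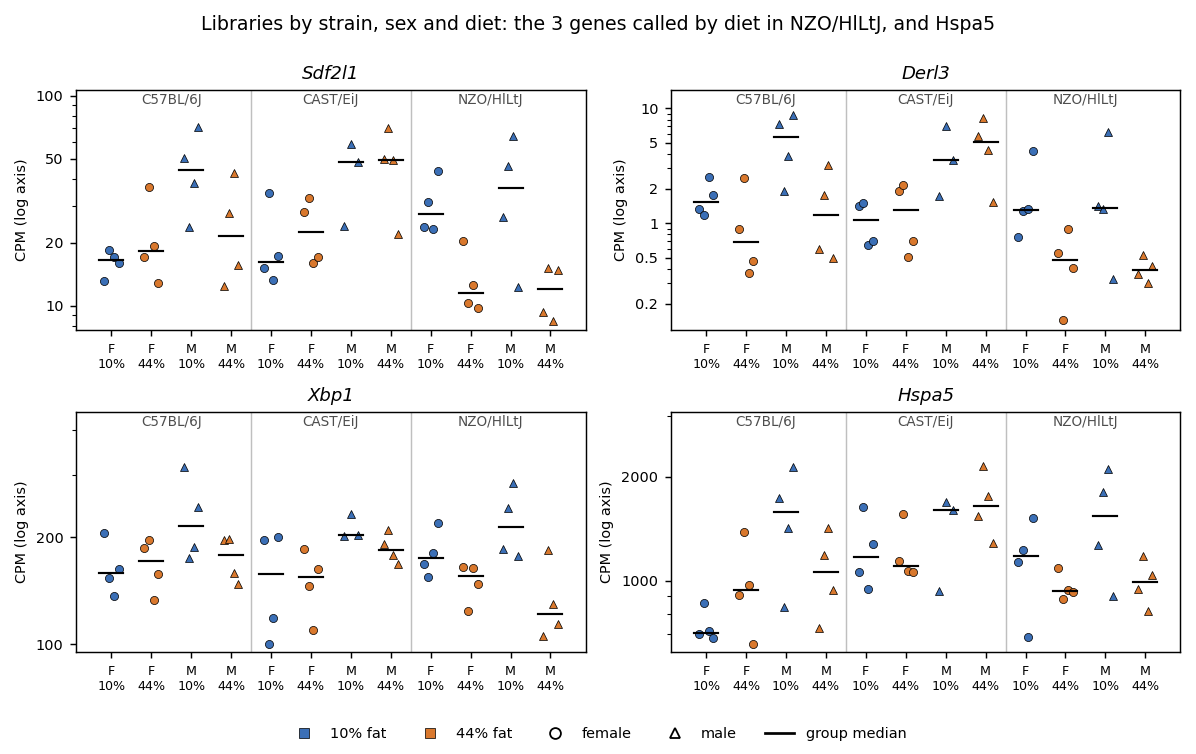
Each point is a library (circles female, triangles male, blue 10% fat, orange 44% fat) on a log CPM axis, with a line at the median of each group, for Sdf2l1, Derl3, Xbp1 and Hspa5. In the NZO/HlLtJ panels the 44% fat libraries of Sdf2l1 reach at most 20.4 CPM, while only 1 library on 10% fat, at 12.3 CPM, lies below that.

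Whether the diet effect differed among strains was asked with a joint test, which called 0 members (0.048% of all genes), with 8 at an unadjusted p under 0.05. Sdf2l1 had the smallest p among members, 0.00311 (adjusted p = 0.204, edgeR). Its diet effect was -0.24 (95% interval -0.87 to 0.38) in C57BL/6J and 0.18 (-0.48 to 0.83) in CAST/EiJ. The NZO/HlLtJ effect was lower than that of CAST/EiJ by 1.59 on the log2 scale (interval -2.51 to -0.68), which did not pass adjustment (adjusted p = 0.149, edgeR). Derl3 was also lower on 44% fat in C57BL/6J, by value, at -1.27 (SE 0.49, adjusted p = 0.249), but not in CAST/EiJ, at 0.28 (SE 0.51, adjusted p = 0.91, edgeR). A difference of these diet effects between strains was therefore not shown, and a p that misses the threshold does not show that they were alike.

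For Hspa5 the diet effect was -0.06 (95% interval -0.43 to 0.32) in C57BL/6J and 0.12 (-0.28 to 0.51) in CAST/EiJ. The NZO/HlLtJ value, given above, was -0.43. Xbp1 had -0.18 and -0.11, Atf4 -0.11 and -0.10, and Ddit3 0.20 and -0.16 in C57BL/6J and CAST/EiJ. None of these passed in edgeR. In CAST/EiJ, 24 of 34 members had positive diet values (median 0.05), led by Creld2 at 0.55 (SE 0.34, adjusted p = 0.552). In C57BL/6J the highest was Atf3 at 1.33 (SE 0.49, adjusted p = 0.218), and without the library with 35.6 CPM its value was -0.15 (adjusted p = 0.909, edgeR).

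In C57BL/6J the diet values of the lumenal chaperones had opposite signs in the sexes. All 9 were positive in females (median 0.41) and negative in males (median -0.57). The 5 isomerases and lectin chaperones did not share this, with 2 positive and 3 negative in females (median -0.01) and 5 negative in males (median -0.23). Within either sex 0 members were called (17 of 16650 genes in females and 7 in males). The lumenal chaperones vary together, each with r of 0.706 or more with Hspa5, so their signs are not 9 separate results. These values within the sexes were chosen for display after the data were seen. Hspa5 had 700, 859, 713 and 683 CPM in females on 10% fat and 910, 1381, 974 and 657 CPM on 44% fat. In males it had 1741, 841, 1420 and 2140 CPM on 10% fat and 730, 1185, 1423 and 937 CPM on 44% fat. Females on 10% fat were the lowest and least variable group, males on 10% fat the highest and most variable. The difference between the sexes was positive in 34 of 34 members (median 0.46), with 13 at an unadjusted p under 0.05, but 0 were called (0.0841% of all genes), and a joint test over the strains called 0 as well (0.108% of all genes). Of the 5 acinar libraries, 4 were females on 44% fat or males on 10% fat of this strain, 2 in each, and 7 of 8 acinar markers were called in the joint test. Without the 5 acinar libraries 7 of the 9 lumenal chaperones were positive in females (median 0.10) and 0 in males (median -0.87), the sex difference was positive in 30 of 34 members (median 0.46), and 33 of 34 had a negative diet value over both sexes (median -0.25), with 0 called. Without only the female library that stood apart, the sex difference was positive in 31 members (median 0.40), and all 9 lumenal chaperones stayed positive in females (median 0.44).

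The second question was how the genes differ between females and males. In C57BL/6J, females had lower RNA levels of many folding genes: 16 members were lower in females and 1 was higher, against 16.8% of all genes called (8.1% lower, 8.7% higher). The median log2 difference, female minus male, was -0.31 for the members and 0.01 for all genes, and 31 of 34 were negative. The 16 included 5 of 9 lumenal chaperones, 3 of 5 isomerases and lectin chaperones, 3 of 7 degradation genes and both translocation genes. Groups overlapped for every member (2.82% of all genes did not overlap). Markers of Kupffer cells, the macrophages of the liver, moved with sex: 5 of 10 were higher in C57BL/6J females and 0 lower (median 0.49), with summed levels of 297.6 to 402.7 CPM in females and 214.6 to 372.8 CPM in males. Their part in the result was not tested.

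Hspa5 ranged from 657 to 1381 CPM (median 786) in females and from 730 to 2140 CPM (median 1303) in males, a difference of -0.59 (SE 0.19, adjusted p = 0.0238, edgeR, n = 8 against 8). Pdia6, a disulphide isomerase, ranged from 178 to 256 CPM (median 208) in females and from 207 to 364.5 CPM (median 278) in males (-0.41, SE 0.11, adjusted p = 0.00466, edgeR). Dnajb11, a DnaJ partner of Hspa5, ranged from 67.2 to 115 CPM in females and from 79.2 to 149 CPM in males (-0.44, SE 0.12, adjusted p = 0.00705, edgeR). In each of these genes most female libraries lay below the male median. Sel1l, the adaptor of the Syvn1 ligase, had medians of 199.6 and 263 CPM in females and males (-0.41, SE 0.11, adjusted p = 0.00716), and Hyou1 had 216 and 390 CPM (-0.70, SE 0.20, adjusted p = 0.0141, edgeR). Xbp1 (-0.27, adjusted p = 0.206), Atf4 (-0.19, adjusted p = 0.226) and Ddit3 (-0.31, adjusted p = 0.47) were not called by edgeR.

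Asns, asparagine synthetase and a target of Atf4, was the exception in size. C57BL/6J males had 4.57, 1.10, 1.49 and 7.11 CPM on 10% fat and 1.89, 1.79, 8.65 and 1.97 CPM on 44% fat. Females had 0.465, 0.471, 0.374 and 0.142 CPM on 10% fat and 2.77, 0.350, 0.0994 and 0.540 CPM on 44% fat. Every male library exceeded every female library but 1, the female 44% fat replicate 1 that stood apart in stress genes. The difference was -2.60 (SE 0.44, adjusted p = 2.44e-05, edgeR), and it had log2 values of -1.37, -2.18 and -4.08 within the 3 identifier runs. Atf3 was the member called higher in females, at 1.37 (SE 0.49, adjusted p = 0.05, edgeR), and without that same female library its value was -0.10 (adjusted p = 0.873).

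The count of 17 called members in C57BL/6J depended on single libraries: it was 7 without male 44% fat replicate 3, 8 without male 10% fat replicate 4, 9 without female 10% fat replicate 1 or female 44% fat replicate 4, 10 without female 44% fat replicate 1, male 10% fat replicate 1 or female 10% fat replicate 4, and 11 without male 44% fat replicate 2. A score of core clock genes ranged from -2.56 to -0.11 in the females and from -2.56 to 3.04 in the males, and with it as a covariate 10 of the 17 were called. Hspa5 had -0.50, -0.05 and -1.11 within the 3 identifier runs, and Dnajb11 -0.57, -0.09 and -0.69. The part of sampling time in the difference was not tested.

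In CAST/EiJ, 10 members were lower in females and 1 was higher, with a median of -0.16. Of all genes 30.3% were called, 16.1% lower and 14.2% higher. The total share of members, 32.4%, was near this background, but by direction 29.4% were lower and 2.94% higher. The sexes overlapped for every member (8.08% of all genes did not). Markers moved with sex here too: 8 of 10 Kupffer cell markers were higher in females and 0 lower (median 0.85), with sums of 162.7 to 321.3 CPM in females and 101.6 to 174.9 CPM in males. The summed hepatocyte markers did not overlap, at 101300 to 142100 CPM in females and 65210 to 95580 CPM in males, although by gene 3 of 10 were higher and 1 lower. The part of these markers was not tested. Eif2ak3, the PERK sensor kinase, ranged from 10.2 to 20.03 CPM (median 16.3) in females and from 19.3 to 33.7 CPM (median 31.0) in males (-0.83, SE 0.20, adjusted p = 0.00134, edgeR, n = 8 against 7). The ranges met only at their ends, and the values within the 3 identifier runs were -0.53, -1.04 and -0.82. Derl3 ranged from 0.513 to 2.16 CPM in females and from 1.54 to 8.26 CPM in males (-1.94, SE 0.51, adjusted p = 0.00365), Sdf2l1 from 13.2 to 34.2 CPM and from 21.9 to 70.2 CPM (-1.08, SE 0.32, adjusted p = 0.00922, edgeR). Dnajb9, a DnaJ protein that restrains Ern1, ranged from 23.2 to 46.0 CPM in females and from 20.5 to 97.2 CPM in males, where 1 library, male 10% fat replicate 1, was below all females (-0.88, SE 0.27, adjusted p = 0.0114, edgeR). Sel1l was lower, at -0.39 (SE 0.12, adjusted p = 0.00842), and Xbp1, at -0.38 (SE 0.15, adjusted p = 0.0453), while Hspa5 (-0.34, adjusted p = 0.187), Atf4 (-0.16, adjusted p = 0.272) and Ddit3 (0.01, adjusted p = 0.988) were not called by edgeR. Derl2, a widely expressed derlin, was the member higher in females (0.27, SE 0.10, adjusted p = 0.0423, edgeR).

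The CAST/EiJ count of 11 was 5 without male 10% fat replicate 2 or 3, and 7 without female 10% fat replicate 1, 3 or 4, female 44% fat replicate 3 or male 44% fat replicate 1, 2 or 3. The calls of Eif2ak3, Derl3, Sel1l and Sdf2l1 stood in all 15 of these refits and that of Dnajb9 in 13, but those of Derl2 and Xbp1 in 5 each.

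In NZO/HlLtJ, 3 members were lower in females and 0 were higher (17.2% of all genes called, 7.94% lower). The total share was below the background, and the lower share of members, 8.82%, was near that of all genes. All 3 belong to the sensors and the Atf4 arm. Trib3, a pseudokinase induced through Atf4, had 1.88, 2.06, 4.39 and 1.85 CPM in females on 10% fat and 3.14, 2.19, 3.20 and 2.68 CPM on 44% fat. Males had 6.04, 3.78, 6.07 and 7.0 CPM on 10% fat and 14.6, 3.30, 10.1 and 8.99 CPM on 44% fat. Only 1 female library exceeded any male library. The difference was -1.44 (SE 0.31, adjusted p = 0.000879, edgeR), and -1.51 within the identifier run that holds 4 groups of this strain (adjusted p = 0.187).

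Ppp1r15a (GADD34), the phosphatase subunit that ends the Eif2ak3 signal, ranged from 5.56 to 9.54 CPM (median 6.74) in females and from 7.32 to 16.6 CPM (median 9.93) in males (-0.55, SE 0.14, adjusted p = 0.00536, edgeR). Atf6 ranged from 67.3 to 89.6 CPM in females and from 90.8 to 107 CPM in males (-0.25, SE 0.08, adjusted p = 0.0152, edgeR). It was the only member whose sexes did not overlap in this strain (2.91% of all genes did not). Hspa5 (-0.23, adjusted p = 0.428), Xbp1 (-0.06, adjusted p = 0.816), Atf4 (-0.17, adjusted p = 0.269) and Ddit3 (-0.18, adjusted p = 0.71) were not called by edgeR. Without male 10% fat replicate 4 the count was 5. In this strain 8 of 10 Kupffer cell markers were higher in females and 0 lower (median 0.68), with sums of 258.9 to 429.6 CPM in females and 169.8 to 262.7 CPM in males, and their part was not tested.

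A joint test asked whether the sex difference itself differed among strains. It called 3 members, 8.82%, which is below the 13.6% of all genes called. They were Asns (adjusted p = 0.00689), Trib3 (adjusted p = 0.00892) and Atf6 (adjusted p = 0.0476, edgeR). The female-minus-male values of Asns were, in C57BL/6J first, then CAST/EiJ, then NZO/HlLtJ, -2.60, 0.16 and -0.76, those of Trib3 0.19, 0.10 and -1.44, and those of Atf6 -0.23, 0.08 and -0.25. The difference of Asns between CAST/EiJ and C57BL/6J was 2.77 (adjusted p = 0.00406), and that of Trib3 between NZO/HlLtJ and CAST/EiJ was -1.54 (adjusted p = 0.0134, edgeR). Asns was called in 47 of 47 refits that left out 1 library and Atf6 in 17, and without NZO/HlLtJ male 10% fat replicate 3 the count was 5.

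**Figure D3:**
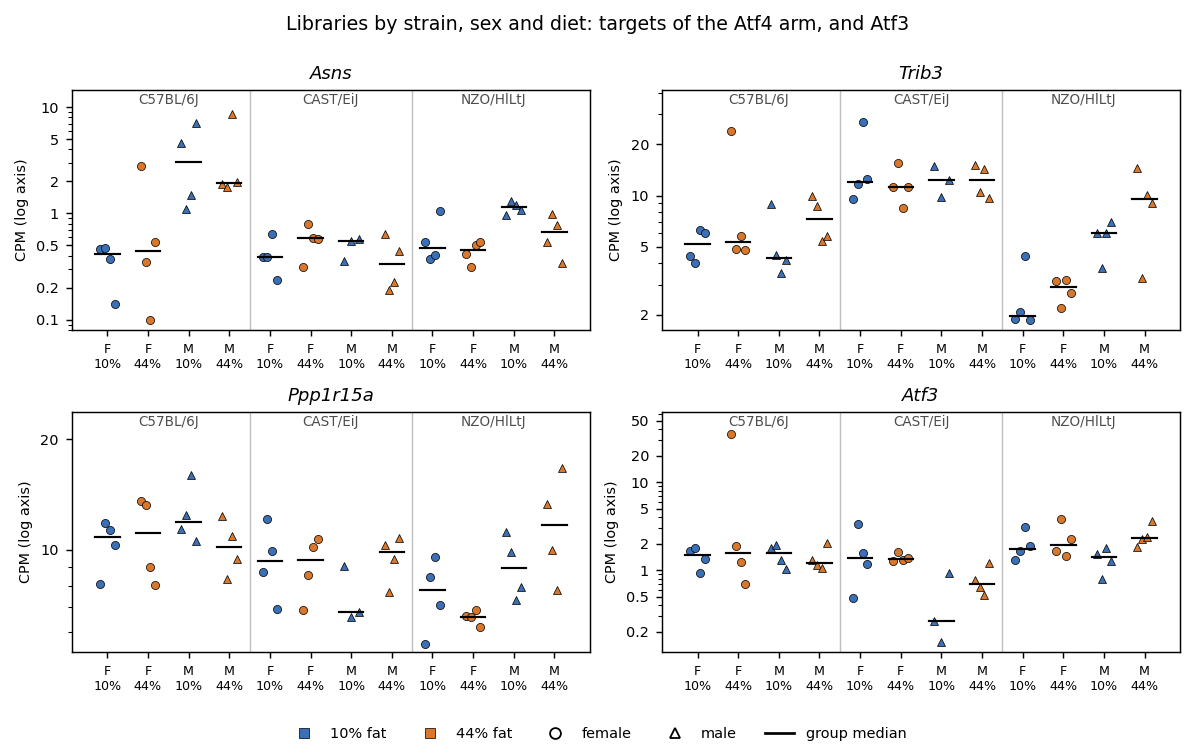
Each point is a library on a log CPM axis (circles female, triangles male, blue 10% fat, orange 44% fat, line at the group median) for the Atf4 targets Asns, Trib3 and Ppp1r15a and for Atf3. Asns is at 1.10 CPM or more in every C57BL/6J male, Trib3 is at 4.39 CPM or less in every NZO/HlLtJ female, and a single C57BL/6J female library lies at 35.6 CPM of Atf3.

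The third question was how the strains differ, averaged over diets and sexes. Values for the 3 strains stand in the order C57BL/6J, then CAST/EiJ, then NZO/HlLtJ. CAST/EiJ livers had higher RNA levels of many folding genes than C57BL/6J livers: 14 members were higher and 5 lower. Strain differences were common over all genes, with 67.9% called, 32.6% higher and 35.3% lower, so the count is below the background and only the direction leans (median 0.15 against -0.02). Among roles, 6 of 9 lumenal chaperones, 3 of 5 isomerases and lectin chaperones and both translocation genes were higher, and 0 of these 16 were lower. In identifier run 3 alone, which holds fewer libraries, the calls of Hspa5, Hsp90b1, Hyou1, Manf, Creld2, Pdia3, Pdia6 and Calr were lost. The sensors and the Atf4 targets had 1 higher and 4 lower. How reads with strain variants were aligned is not given in the sources used here, so its part in the strain differences was not tested. Immune cell markers moved with strain: in CAST/EiJ against C57BL/6J 9 of 10 Kupffer cell markers were lower and 0 higher (median -1.29), and 8 of 10 T and NK cell markers were lower and 1 higher (median -2.63). The Kupffer sums were 101.6 to 321.3 CPM in CAST/EiJ and 214.6 to 402.7 CPM in C57BL/6J, and the T and NK sums 1.15 to 8.67 and 2.51 to 5.48 CPM. In NZO/HlLtJ against CAST/EiJ 7 of 10 and 8 of 10 were higher, with 0 and 1 lower, and in NZO/HlLtJ against C57BL/6J 4 and 3 were lower, with 0 and 2 higher. Their part in the strain results was not tested.

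Ssr1, a subunit of the translocon-associated TRAP complex, was the clearest. It ranged from 77.8 to 136 CPM (median 99.1) in C57BL/6J, from 148 to 219.7 CPM (median 179) in CAST/EiJ and from 94.3 to 169 CPM (median 131) in NZO/HlLtJ. It was the only member whose CAST/EiJ and C57BL/6J libraries did not overlap (12.3% of all genes did not). The difference was 0.81 (SE 0.06, adjusted p = 1.36e-14, edgeR, n = 15 against 16), and it was 0.88, 0.92 and 0.71 within the 3 identifier runs. NZO/HlLtJ lay between, 0.42 above C57BL/6J (SE 0.06, adjusted p = 4.58e-07, edgeR).

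Among the chaperones, Creld2 ranged from 20.2 to 116 CPM (median 32.2) in C57BL/6J, from 39.98 to 191 CPM (median 114) in CAST/EiJ and from 20.9 to 129 CPM (median 39.3) in NZO/HlLtJ. CAST/EiJ exceeded C57BL/6J by 1.30 (SE 0.24, adjusted p = 9.24e-06) and NZO/HlLtJ fell below CAST/EiJ at -1.14 (SE 0.24, adjusted p = 6.1e-05, edgeR). Dnajb11 had medians of 84.3, 139.6 and 93.98 CPM in the 3 strains, 0.66 higher in CAST/EiJ than in C57BL/6J (SE 0.09, adjusted p = 8.02e-09) and -0.60 in NZO/HlLtJ against CAST/EiJ (SE 0.09, adjusted p = 7.84e-08, edgeR). For both genes CAST/EiJ was the highest strain, and the difference of NZO/HlLtJ from C57BL/6J was not called. Pdia6 (medians 221, 346 and 258 CPM) and Manf (85.6, 154 and 112 CPM) were higher in CAST/EiJ than in C57BL/6J by 0.51 (SE 0.08, adjusted p = 1.39e-07) and 0.69 (SE 0.15, adjusted p = 9.27e-05). Hspa5 followed with 0.39 (SE 0.13, adjusted p = 0.00931), at medians of 924, 1286 and 1065 CPM, and was not called with a score of core clock genes as a covariate (0.32, adjusted p = 0.131, edgeR). Hyou1 had 273, 462 and 270 CPM and was lower in NZO/HlLtJ than in CAST/EiJ at -0.62 (SE 0.15, adjusted p = 0.000336), as was Sdf2l1, at medians of 18.9, 27.8 and 17.7 CPM (-0.61, SE 0.22, adjusted p = 0.0162, edgeR).

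The degradation genes split. Edem1, the mannosidase that marks glycoproteins for removal, had medians of 220.5, 336 and 284 CPM in the 3 strains, and both other strains exceeded C57BL/6J, by 0.56 (SE 0.06, adjusted p = 4.78e-11) and 0.33 (SE 0.06, adjusted p = 5.42e-06, edgeR). Of the 3 derlins, Derl1 had medians of 109, 132 and 114 CPM and was lower in NZO/HlLtJ than in CAST/EiJ (-0.25, SE 0.04, adjusted p = 4.9e-07), while Derl2 had medians of 98.5, 73.8 and 110 CPM and was higher (0.52, SE 0.07, adjusted p = 3.75e-08). Derl3 had medians of 1.76, 1.72 and 0.662 CPM and was lower in NZO/HlLtJ than in C57BL/6J (-1.0, SE 0.37, adjusted p = 0.0229) and CAST/EiJ (-1.23, SE 0.38, adjusted p = 0.00403, edgeR). The 3 derlins had 3 different orders of strain medians, but each order rests partly on a pair that was not called. These pairs were NZO/HlLtJ against C57BL/6J for Derl1 and Derl2, and CAST/EiJ against C57BL/6J for Derl3. Herpud1 ranged from 185 to 722 CPM (median 403) in C57BL/6J and from 132 to 534 CPM (median 282) in NZO/HlLtJ, -0.49 (SE 0.18, adjusted p = 0.0186, edgeR), and CAST/EiJ had a median of 446 CPM.

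Targets of the Atf4 arm differed between strains, in directions that varied by gene. In NZO/HlLtJ against C57BL/6J 4 members were higher and 7 lower (49.1% of all genes called, 25.5% higher and 23.6% lower), and all 4 Atf4 targets were among the lower ones, with 0 of 9 lumenal chaperones called. Without the 5 acinar libraries Asns (adjusted p = 0.00533) and Trib3 (adjusted p = 0.0494) were still called, but Chac1 (-0.72, adjusted p = 0.0648) and Ppp1r15a (-0.23, adjusted p = 0.092) were not, and nor was Derl3 (-0.82, adjusted p = 0.097, edgeR). Asns ranged from 0.0994 to 8.65 CPM (median 1.29) in C57BL/6J, from 0.192 to 0.788 CPM (median 0.44) in CAST/EiJ and from 0.317 to 1.30 CPM (median 0.538) in NZO/HlLtJ. Its differences from C57BL/6J were -1.66 (SE 0.33, adjusted p = 3.29e-05) and -1.11 (SE 0.31, adjusted p = 0.00313, edgeR), and all C57BL/6J values of 1 CPM or more but 1 were those of males. Trib3 ranged from 3.54 to 24.0 CPM (median 5.59), from 8.46 to 27.2 CPM (median 11.6) and from 1.85 to 14.6 CPM (median 3.54) in the 3 strains. CAST/EiJ exceeded C57BL/6J by 0.94 (SE 0.21, adjusted p = 0.000189), and NZO/HlLtJ was lower than CAST/EiJ (-1.54, SE 0.22, adjusted p = 8.32e-08) and than C57BL/6J (-0.61, SE 0.21, adjusted p = 0.0172, edgeR). Without the C57BL/6J female that stood apart, the last of these was not called (adjusted p = 0.0738).

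Chac1, a glutathione-degrading enzyme, had medians of 3.93, 4.16 and 2.10 CPM in the 3 strains (-0.81 in NZO/HlLtJ against C57BL/6J, SE 0.28, adjusted p = 0.0181, edgeR). Ppp1r15a had 11.1, 9.05 and 7.86 CPM (-0.36, SE 0.10, adjusted p = 0.00308). Of the factors of this arm, Atf4 had medians of 65.8, 63.5 and 75.4 CPM and was higher in NZO/HlLtJ than in CAST/EiJ (0.22, SE 0.08, adjusted p = 0.0108, edgeR), and Ddit3, with medians of 5.75, 4.70 and 5.82 CPM, was not called between any pair of strains. Atf3 had medians of 1.33, 1.17 and 1.82 CPM. It was lower in CAST/EiJ than in C57BL/6J (-1.28, SE 0.38, adjusted p = 0.003), a value of -0.55 (adjusted p = 0.0286, edgeR) without the library at 35.6 CPM. This call was lost without the 5 acinar libraries and with limma on the deposited log2 values, and its sign turned in identifier run 3 alone. Atf3 was higher in NZO/HlLtJ than in CAST/EiJ (1.05, SE 0.38, adjusted p = 0.0139, edgeR).

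Of the sensors, Atf6 had medians of 113, 103 and 90.2 CPM in the 3 strains and was lower in NZO/HlLtJ than in C57BL/6J (-0.33, SE 0.05, adjusted p = 2.16e-06, edgeR). Xbp1, with medians of 181, 185 and 166 CPM, was not called between any pair of strains. In NZO/HlLtJ against CAST/EiJ, 3 members were higher and 17 lower (68.1% of all genes called, 35.3% higher and 32.8% lower), with 7 of 9 lumenal chaperones lower and 0 higher and a median of -0.22. The 3 strain comparisons share libraries, so their values are given side by side and do not support each other. NZO/HlLtJ overlapped with both other strains for every member (3.78% of all genes did not overlap with C57BL/6J and 11.7% with CAST/EiJ). Summed acinar markers reached 635 CPM in C57BL/6J and 583 CPM in CAST/EiJ, against 13.2 CPM in NZO/HlLtJ, but only the highest sums were higher. They were 2.51 to 7.76 CPM in C57BL/6J females on 10% fat and 1.09 to 6.13 CPM in CAST/EiJ males on 44% fat. In NZO/HlLtJ females on 10% fat they were 6.09 to 12.5 CPM. Without the 5 acinar libraries 17, 8 and 20 members were called in CAST/EiJ against C57BL/6J, NZO/HlLtJ against C57BL/6J and NZO/HlLtJ against CAST/EiJ.

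**Figure D4:**
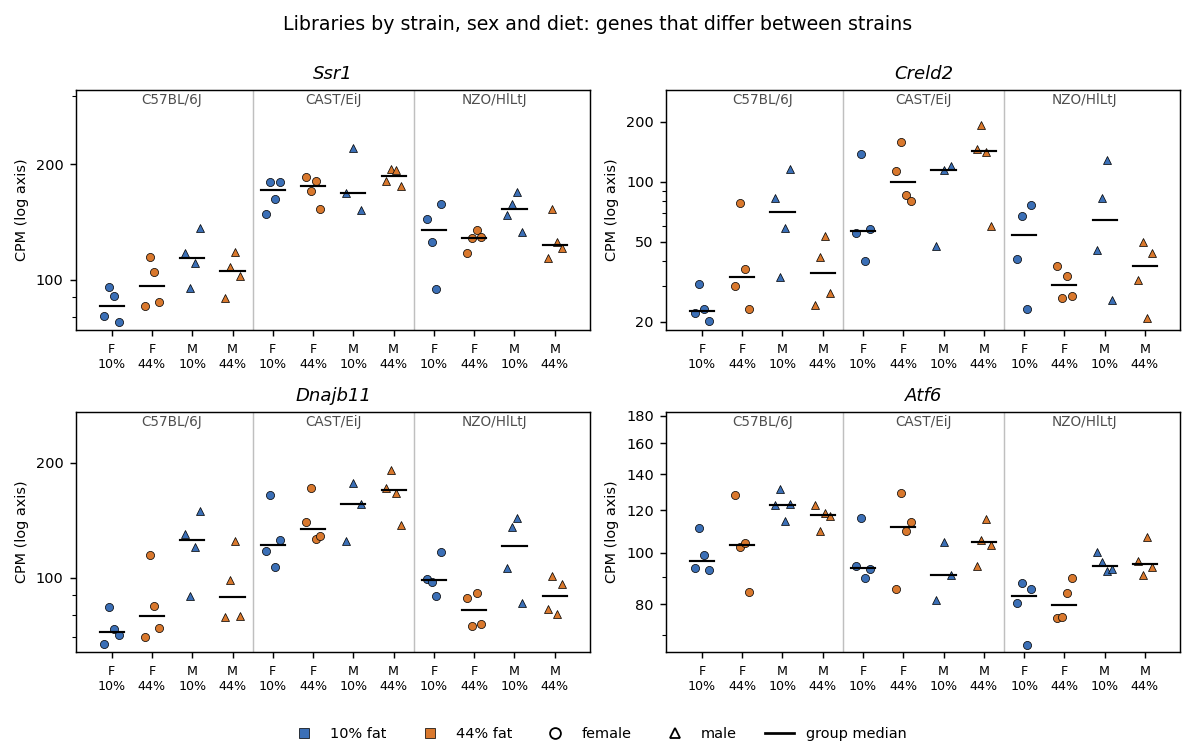
Each point is a library on a log CPM axis (circles female, triangles male, blue 10% fat, orange 44% fat, line at the group median) for Ssr1, Creld2, Dnajb11 and Atf6. Every CAST/EiJ library of Ssr1 is at 148 CPM or more and every C57BL/6J library at 136 CPM or less, and NZO/HlLtJ females of Atf6 reach at most 89.6 CPM while NZO/HlLtJ males start at 90.8 CPM.

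**Figure D5:**
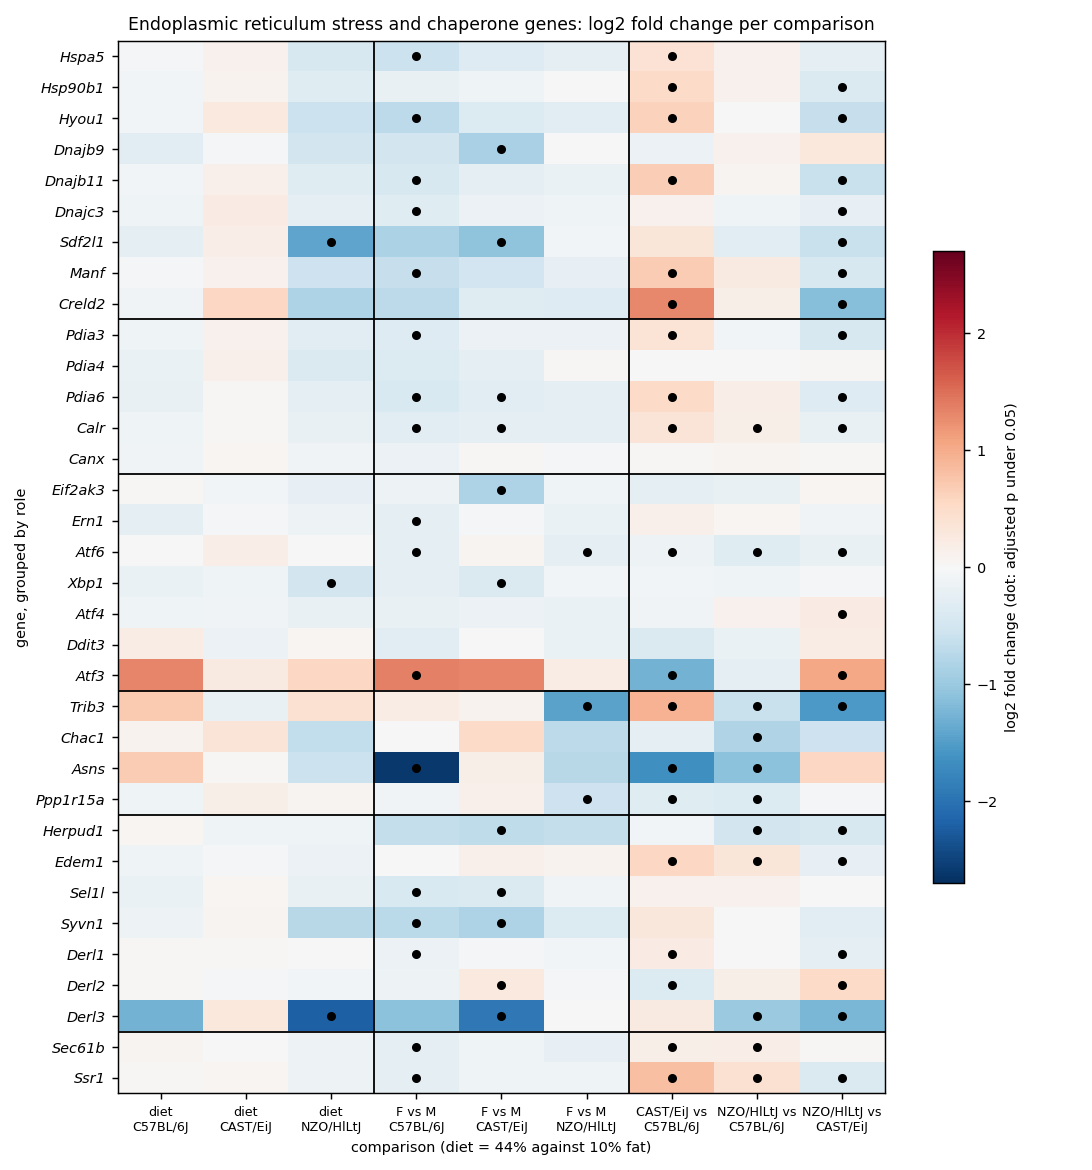
Colours give the log2 fold change of each of the 34 genes (rows, grouped by role) in 9 comparisons, with a dot where the adjusted p was under 0.05. The diet columns hold 0, 0 and 3 dots, all 3 in NZO/HlLtJ, the sex columns 17, 11 and 3, and the strain columns 19, 11 and 20.

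Other genes of the same pathways, in lists that hold none of the 34 members, gave the setting of these results. By diet in NZO/HlLtJ, 3 of 20 translocation and signal peptide genes fell and 0 rose, and the same counts were found for 18 glycosylation and lectin cycle genes. The first 3 were Ssr4 (-0.26, adjusted p = 0.021), Sec61a1 (-0.28, adjusted p = 0.0356) and Srp68 (-0.30, adjusted p = 0.0356), parts of the TRAP complex, the channel and the signal recognition particle. The others were Mogs, the first glucosidase (-0.39, adjusted p = 0.00466), and Rpn1 and Ddost, subunits of the oligosaccharyltransferase (-0.31 and -0.25, adjusted p = 0.0152 and 0.03, edgeR). The list medians were -0.18 and -0.11, against 0 for all genes. Of 27 further Atf4 targets 2 rose and 1 fell: Gpt2 rose by 0.44 (adjusted p = 0.0104) and Gdf15, a stress hormone, by 1.5 (adjusted p = 0.0292), while Slc7a5, an amino acid transporter, was at -0.49 (adjusted p = 0.0429, edgeR). In the other ER lists few genes were called: 0 of 11 further ER chaperones, 1 of 17 oxidative folding genes and 1 of 22 degradation genes, both lower, and 1 higher and 2 lower in each of 19 genes of COPII exit vesicles and 20 regulators of the unfolded protein response. Of 19 cytosolic heat shock genes 0 were called.

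In C57BL/6J females against males, 9 of 22 further degradation genes were lower and 0 higher. They included Vcp (-0.26, adjusted p = 4.09e-05), Nploc4 (-0.28, adjusted p = 0.000357) and Ufd1l (-0.25, adjusted p = 0.00071, edgeR), which together form the complex that pulls chains out of the ER membrane. Of 17 oxidative folding genes 8 were lower and 0 higher, among them Fkbp11 (-1.07, adjusted p = 1.4e-05) and the oxidase Ero1lb (-0.85, adjusted p = 0.000667). Of 20 translocation genes 9 were lower, and of 19 genes of COPII exit vesicles 8 were lower, with 0 higher in each, led by Sec61g (-0.51, adjusted p = 0.00101) and Sec16a (-0.31, adjusted p = 0.000873, edgeR). The medians of these 4 lists ran from -0.20 to -0.13, against 0.01 for all genes, of which 8.1% were lower. Other lists lay nearer that share, with 2 of 18 glycosylation genes and 1 of 11 further ER chaperones lower and 0 higher, 4 lower and 1 higher of 20 regulators of the unfolded protein response, and 1 of 19 cytosolic heat shock genes lower.

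In CAST/EiJ against C57BL/6J, 13 of 20 translocation genes were higher and 0 lower, 14 of 18 glycosylation genes were higher and 3 lower, and 13 of 17 oxidative folding genes were higher and 3 lower, beside 32.6% of all genes higher. COPII genes had 14 higher and 4 lower of 19, degradation genes 11 and 5 of 22, and response regulators 10 and 7 of 20. The lean was not confined to ER lists: cytosolic heat shock genes had 9 higher and 1 lower of 19, and mitochondrial stress genes 7 and 2 of 10. In NZO/HlLtJ against CAST/EiJ the counts were 3 higher and 12 lower, 5 and 13, and 4 and 11 for the translocation, glycosylation and oxidative folding lists. They were 0 higher and 10 lower of 19 cytosolic heat shock genes and 2 and 7 of 10 mitochondrial stress genes. COPII genes had 5 higher and 6 lower of 19, degradation genes 7 and 8 of 22, and response regulators 7 and 4 of 20. Further Atf4 targets did not follow the 4 members in NZO/HlLtJ against C57BL/6J, with 9 higher and 5 lower of 27. The clock score, which ranged from -0.30 to 2.89 in CAST/EiJ and from -2.62 to 3.04 in the other strains, differed in level between the strains, and with it as a covariate 18, 11 and 14 members were called where 19, 11 and 20 were without it. Of the calls printed above between NZO/HlLtJ and CAST/EiJ, those lost with this covariate were Sdf2l1 (-0.55, adjusted p = 0.0845), Derl3 (-0.94, adjusted p = 0.0575) and Atf4 (0.15, adjusted p = 0.156, edgeR).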

How the data were processed

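Liver RNA of 47 mouse libraries in 12 groups was measured by RNA-seq. The authors deposited an estimated count per gene and library (expected counts, unnormalized), of which 20.3% of values were not whole (tolerance 1e-06), and a second table of log2 variance-stabilized values from them. The submitters' processing notes name GRCm38 and DESeq2; which aligner, counter, strand setting and gene annotation were used is not given in the sources used here, so overlapping and antisense genes cannot be told apart. Gene positions in the deposited tables are in megabases, an other unit of the authors. No gene was listed with fewer than 24 libraries above 0.

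After rounding to whole numbers, the counts were tested with edgeR 4.0.16 in R 4.3.3: filterByExpr kept 16650 of 20320 genes, scaling was by TMM, and the robust quasi-likelihood fit had 12 group means and 35 residual degrees of freedom. Diet, sex and strain contrasts averaged the other factors with equal weight. P-values were adjusted by Benjamini-Hochberg over all tested genes with a threshold of 0.05. Co-variation with Hspa5 used log2 CPM with a prior count of 2, and its p-values were also adjusted over all tested genes. Alternatives used DESeq2 1.42.0, limma 3.58.1 on the deposited log2 values, other filters and scaling, covariates and omitted libraries. The code was tested on simulated data. The 34 members and all gene lists were chosen with earlier results of these data known. Values per library are given for members called by diet, for the 6 called with the largest change and the 4 with the smallest p in each strain comparison, for the 5 called with the smallest p in each sex comparison, and always for Hspa5, Xbp1, Atf4 and Ddit3; beyond 5 libraries they are given as lowest, median and highest.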

Additional observations from a re-analysis of the deposited data

Results flagged for a closer look

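Among 275 groups of 4 libraries examined over 25 named members, 8 values stood far from the other 3 of their group (gap over range above 0.829); chance alone gives about 5% of groups. Asns was 8.65 CPM in C57BL/6J male 44% fat replicate 3, the highest of its group. Ddit3 was lowest, at 3.77 CPM, in NZO/HlLtJ male 10% fat replicate 4. Eif2ak3 at 56.6 CPM and Trib3 at 24.0 CPM were the highest of their group in C57BL/6J female 44% fat replicate 1. Trib3 was also high in NZO/HlLtJ female 10% fat replicate 3, at 4.39 CPM. Pdia6 was lowest in C57BL/6J female 10% fat replicate 1, at 197 CPM, and highest in C57BL/6J female 44% fat replicate 2, at 256 CPM, and in CAST/EiJ female 10% fat replicate 2, at 399 CPM.

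The sex difference itself differed among strains in edgeR's joint test for Asns (adjusted p = 0.00689), Trib3 (adjusted p = 0.00892) and Atf6 (adjusted p = 0.0476). This share of members, 8.82%, was below the 13.6% of all genes.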

How the results depend on the processing

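The diet counts of 0 in C57BL/6J and CAST/EiJ and in both joint diet tests were 0 under every alternative run. The NZO/HlLtJ diet count of 3 was 5 with DESeq2, 6 without the 5 acinar libraries, 0 in identifier run 1 alone and 1 to 10 with 1 library left out. Of the strain counts, the 19 of CAST/EiJ against C57BL/6J was 5 in run 3 alone. Female against male in C57BL/6J called 17 members, and 10 with the clock covariate, 11 with the strain fitted alone, 1, 1 and 2 in runs 1, 2 and 3 alone and 7 to 21 with 1 library left out. In CAST/EiJ the 11 became 7 with no expression filter, 0, 3 and 1 in the 3 runs and 5 to 12 with 1 library left out. In NZO/HlLtJ the 3 became 5 with DESeq2 or without the acinar libraries, 7 with the strain fitted alone and 3 to 5 with 1 library left out. The sex difference among strains went from 3 to 0 in run 1 alone and to 2 to 5 with 1 library left out. The runs alone hold fewer libraries; other causes were not tested.

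Of 3146 refits of the 87 called pairs of member and comparison, 2746 kept direction and call, 391 kept the direction only and 9 had the other direction. These 9 were Atf3 in C57BL/6J females against males (-0.249 without the acinar libraries, -0.0281 and -0.484 in runs 2 and 3, -0.104 without female 44% fat replicate 1 and up to 1.57 without another library), Dnajb9 in CAST/EiJ females against males (0.0673, run 1), Atf6 (0.0104, run 2) and Atf3 (0.0519, run 3) in CAST/EiJ against C57BL/6J, and Herpud1 (0.588, run 1) and Edem1 (0.00389, run 1) in NZO/HlLtJ against CAST/EiJ. In refits chosen after seeing the data, the C57BL/6J diet value of Atf3, 1.33, was -0.15 without female 44% fat replicate 1 and -0.295 without the acinar libraries, with no call in any of them. The NZO/HlLtJ diet effect could not be fitted in runs 2 and 3 alone. No paired analysis was possible because the labels give the groups no shared replicate numbers. Low counts limit Asns, Atf3 and Derl3 most.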
